A study of Mus musculus with 2 samples.

Results

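The genes described here are 30 genes of cholesterol and fatty acid synthesis, chosen by symbol from the gene list of the mouse preoptic area libraries. All 30 were listed in both libraries, out of 31054 genes. They comprise 18 enzymes of sterol synthesis, 5 genes of control and transport, and 7 enzymes of fatty acid synthesis. The study profiled single cells of the preoptic area of the hypothalamus, a region that holds sleep-regulating neurons, in C57BL/6J mice aged 9 to 10 weeks, with males and females pooled. The SD library came from mice deprived of sleep for 6 h, and the SD+RS library from mice that could then sleep for 2 h following an equal deprivation. Cells were prepared by Act-seq, a dissociation method that blocks new transcription, and both libraries share that preparation. There was 1 library per treatment and no library from undisturbed mice, so no test between treatments was possible. The intervals below are 95% intervals that cover counting error only, and treatment cannot be told apart from library.

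Cells make cholesterol from acetyl-CoA through mevalonate, farnesyl diphosphate, squalene and lanosterol. When sterol is low, the protein made by Scap carries the precursors of the SREBP transcription factors (from Srebf1 and Srebf2) to the Golgi, where they are released, and the protein made by Insig1 holds that complex back when sterol is plentiful. Brain cholesterol is made locally, mostly by oligodendrocytes for myelin and by astrocytes, because lipoproteins of the blood do not cross the blood-brain barrier in quantity.

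The stretches upstream of 4 of these genes are shown because their members carried the ratios described below: Hmgcs1 for the first committed steps, Mvk and Hsd17b7 for the highest ratios in mature oligodendrocytes, and Insig1 for astrocytes. Each is read 5′ to 3′ on the gene's own strand from the RefSeq promoter table (GRCm38.p6) and stops before the first annotated transcript start of RefSeq and GENCODE. Capitals mark TCACNCCAC, a form of the sterol regulatory element that SREBP binds, and CCAAT, the letters bound by NF-Y, either of them on either strand (CCAAT on the other strand reads ATTGG). The Hmgcs1 stretch lies at chr13:119690101-119690350 on the plus strand, that of Mvk at chr5:114444019-114444268 on the plus strand, that of Hsd17b7 at chr1:169969242-169969455 on the minus strand and that of Insig1 at chr5:28071162-28071362 on the plus strand.
Hmgcs1: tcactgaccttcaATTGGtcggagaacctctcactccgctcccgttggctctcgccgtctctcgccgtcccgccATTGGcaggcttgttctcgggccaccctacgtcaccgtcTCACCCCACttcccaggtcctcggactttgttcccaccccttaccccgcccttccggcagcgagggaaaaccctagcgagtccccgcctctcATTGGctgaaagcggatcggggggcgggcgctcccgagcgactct
Mvk: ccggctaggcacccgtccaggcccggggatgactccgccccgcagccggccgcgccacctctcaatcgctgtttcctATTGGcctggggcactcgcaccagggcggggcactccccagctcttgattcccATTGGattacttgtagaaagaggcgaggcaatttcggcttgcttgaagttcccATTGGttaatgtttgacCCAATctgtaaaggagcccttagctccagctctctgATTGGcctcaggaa
Hsd17b7: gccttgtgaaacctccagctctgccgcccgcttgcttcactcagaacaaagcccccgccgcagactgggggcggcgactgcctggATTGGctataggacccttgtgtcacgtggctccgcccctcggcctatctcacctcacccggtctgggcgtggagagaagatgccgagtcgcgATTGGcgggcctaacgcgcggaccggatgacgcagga
Insig1: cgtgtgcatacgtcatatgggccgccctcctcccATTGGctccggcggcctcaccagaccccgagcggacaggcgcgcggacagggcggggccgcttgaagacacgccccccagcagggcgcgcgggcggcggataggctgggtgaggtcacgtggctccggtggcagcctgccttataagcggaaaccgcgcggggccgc

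A RefSeq promoter, 250 bases before to 50 after the start, was found for 24 of the 30 genes. CCAAT was present in 20 of these 24, against 41.1% of the 27025 genes in the table. GGGCGG, the core of the GC box bound by Sp1, was also present in 20 of 24, against 38.2% of genes. An exact TCACNCCAC was found in 1 of the 24, Hmgcs1, against 1.44% of genes, and with at most 1 mismatch it was found in 10 of 24, against 26.7% of genes. Mvk held CCAAT 5 times in the printed stretch and Insig1 held it once. CCAAT and TCACNCCAC do not overlap in the printed stretches, and these matches are descriptions of letters, not of binding.

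The libraries held 10262 and 8106 cell barcodes and 132191585 and 123500649 UMIs (unique molecular identifiers, each standing for a captured transcript) in SD and SD+RS, and 23 barcode sequences occurred in both. After filters on genes, mitochondrial share and called doublets, 9295 and 7412 cells remained. Clustering left the 30 genes out of the genes that separated cells, and 8 classes were named from marker genes: cells like neurons (3868 and 4287 cells in SD and SD+RS), astrocytes (2095 and 1274), mature oligodendrocytes (1328 and 812), committed and newly formed oligodendrocytes (56 and 37), oligodendrocyte precursors (263 and 175), microglia (222 and 169), endothelial cells (463 and 294) and mural cells (210 and 122). Cells with Xist and no Y-linked UMIs made up 38.8% of sexed neurons in SD and 77.4% in SD+RS, and the same share was higher in SD+RS in all 8 classes, so sex moves with the library. Different clusters held most astrocytes and most mature oligodendrocytes of the libraries, which bears on both classes and is given with their values.

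All levels below are CPM, the UMIs of a gene or list per 1000000 UMIs of the class in a library, and are not divided by gene length. In SD, the summed level of the 18 sterol synthesis genes was 1739 in committed and newly formed oligodendrocytes, 1461 in astrocytes, 1038 in neurons, 984 in mature oligodendrocytes, 826 in precursors, 469 in endothelial cells, 390 in mural cells and 280 in microglia. The intervals of neighbours in this order did not overlap, and those of endothelial cells (440 to 498) and mural cells (345 to 439) lay closest. The 7 fatty acid synthesis genes followed another order, from 2831 CPM in mature oligodendrocytes, 1988 in committed and newly formed oligodendrocytes and 1664 in astrocytes down to 768 in precursors, 454 in neurons, 212 in endothelial cells, 194 in microglia and 166 in mural cells.

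**Figure D1:**
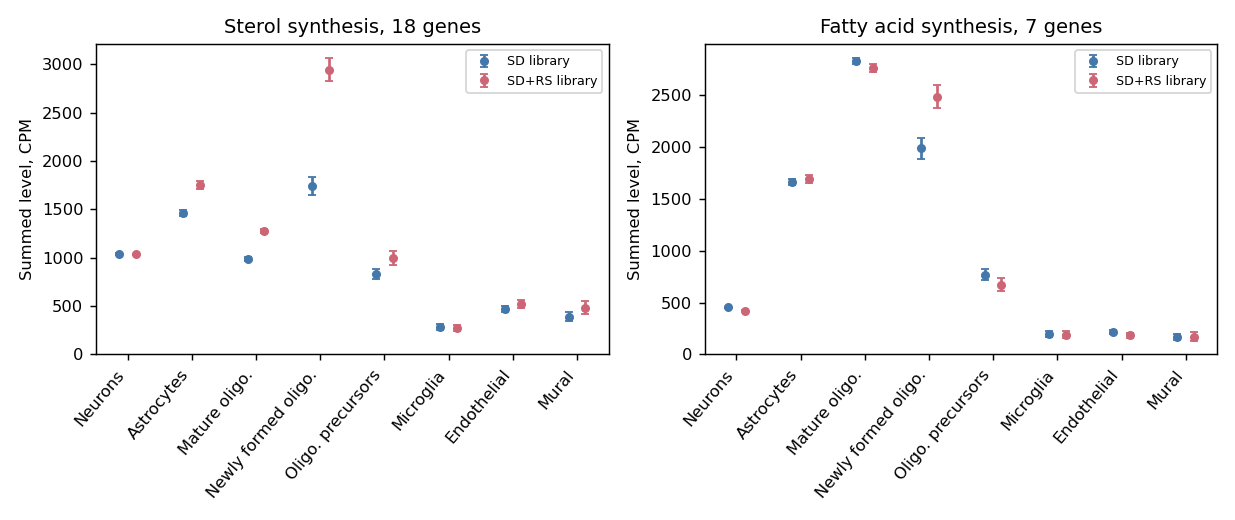
Summed level of the sterol synthesis genes (left) and fatty acid synthesis genes (right) in CPM, by cell class, in the SD library (blue) and the SD+RS library (red); newly formed oligo. stands for committed and newly formed oligodendrocytes, and bars are exact 95% Poisson intervals of counting error. Sterol synthesis stood at 1461 and 1749 CPM in astrocytes and at 1038 and 1033 in neurons.

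Between the libraries, the summed level of the sterol synthesis genes was higher in SD+RS in the oligodendrocyte lineage and in astrocytes and nearly equal in neurons. In neurons it was 1038 CPM in SD and 1033 in SD+RS, a log2 ratio of -0.01 (interval -0.02 to 0.01). Astrocytes had 1461 and 1749, a log2 ratio of 0.26 (0.22 to 0.30). Mature oligodendrocytes had 984 and 1276, a log2 ratio of 0.38 (0.34 to 0.41). Committed and newly formed oligodendrocytes had 1739 and 2944, a log2 ratio of 0.76 (0.66 to 0.86), and precursors had 826 and 994, a log2 ratio of 0.27 (0.13 to 0.41). The stage markers of the committed and newly formed class also differed between the libraries, as given below. The remaining classes had wide intervals: 0.31 (0.04 to 0.57) in mural cells, 0.14 (0.00 to 0.29) in endothelial cells and -0.05 (-0.30 to 0.20) in microglia. The median log2 ratio of all measured genes was within 0.1 of zero in each class (-0.09 in committed and newly formed oligodendrocytes, 0.06 in endothelial cells).

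The fatty acid synthesis genes did not share that pattern. Their summed level was 2831 and 2763 CPM in mature oligodendrocytes (log2 ratio -0.03, -0.06 to -0.01) and 1664 and 1692 in astrocytes (0.02, -0.02 to 0.07). It was lower in SD+RS in neurons, at 454 and 421 (-0.11, -0.13 to -0.09), and in precursors, at 768 and 674 (-0.19, -0.35 to -0.03). The 8 mature oligodendrocyte markers in neurons stood at 65.2 and 48.3 CPM, lower in SD+RS as well, and their part in the neuron values was not tested. Committed and newly formed oligodendrocytes had 1988 and 2488 (0.32, 0.23 to 0.42). The intervals of the sterol and the fatty acid ratio did not overlap in neurons, astrocytes or any class of the oligodendrocyte lineage. With 1 library each, this compares the libraries, not the treatments. This gap between the lists held in neither of the large astrocyte clusters, 8 and 9. In cluster 8 the fatty acid ratio was 0.54 (0.46 to 0.63) and the sterol ratio 0.12 (0.02 to 0.22), the opposite order. In cluster 9 the intervals overlapped, at 0.04 (-0.09 to 0.17) for fatty acid and 0.10 (-0.02 to 0.23) for sterol genes. They also overlapped in mature oligodendrocyte sub-cluster 4 (fatty acid -0.11, sterol -0.21). The gap held in the shallow astrocyte cluster 21 (-0.41 and 0.47) and in mature oligodendrocyte sub-cluster 3 (-0.11 and 0.31). Mature oligodendrocyte sub-cluster 7, led by Meg3, Rtn1 and Snhg11 (9 and 6 cells), had a fatty acid level of 2932 and 1183 CPM. That is a log2 ratio of -1.31 (-1.57 to -1.05), and its part in the class ratio of -0.03 was not tested.

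**Figure D2:**
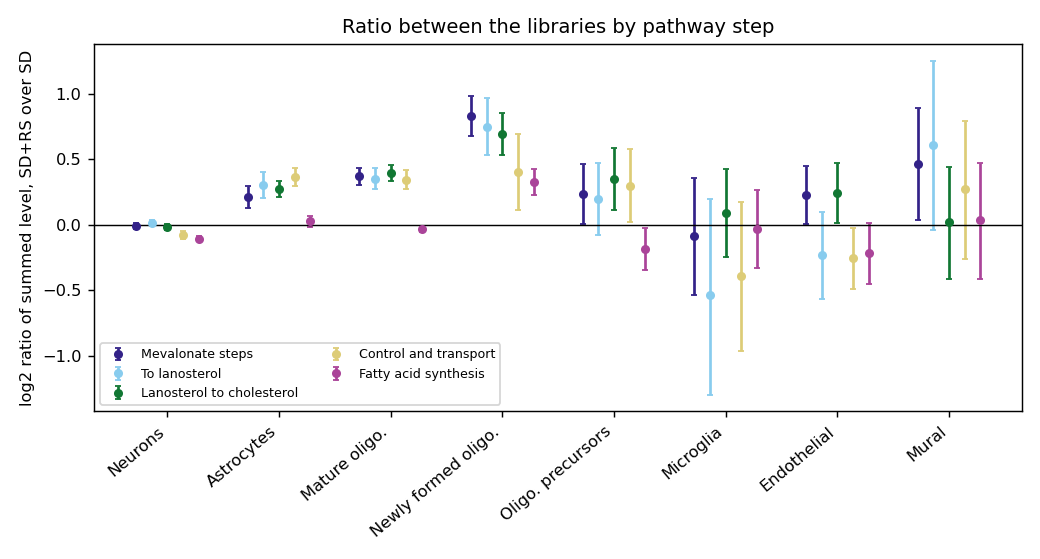
Log2 ratio of the summed level (SD+RS over SD) for each step of the pathway in 8 cell classes, with 95% intervals that cover counting error. The 3 sterol steps lay between 0.35 and 0.39 in mature oligodendrocytes and between -0.02 and 0.01 in neurons.

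Calls are given as members past 1.5-fold among genes with at least 50 UMIs over both libraries, beside the same share of all genes of the class. All 30 members had that many UMIs in neurons, astrocytes and mature oligodendrocytes, 26 in committed and newly formed oligodendrocytes, 25 in precursors, 20 in endothelial cells, 7 in microglia and 6 in mural cells. In neurons 0 of 30 were past 1.5-fold in either direction (background 1.67% higher and 2.79% lower). In astrocytes 2 were higher, Insig1 and Stard4, and 0 lower (background 3.85% and 7.17%). In mature oligodendrocytes 4 were higher, Mvk, Hsd17b7, Dhcr7 and Nsdhl, and 0 lower (4.26% and 4.67%). In committed and newly formed oligodendrocytes 14 were higher and 0 lower (6.56% and 14.5%), 13 of them sterol enzymes and the other Insig1. In precursors 0 passed in either direction (4.06% and 5.13%). Endothelial cells had 3 higher, Mvk, Acat2 and Scap, and 1 lower, Stard4 (6.75% and 4.84%). Microglia had Elovl1 higher (4.59%) and 0 lower (6.62%), and mural cells had Pmvk higher (4.72%) and Acly lower (10.9%).

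At the lower threshold of 1.2-fold, 12 of the 18 sterol synthesis genes were higher and 0 lower in mature oligodendrocytes (background 16.0% and 17.6%), 9 of 18 higher and 0 lower in astrocytes (16.4% and 22.2%), and 1 of 18 higher and 0 lower in neurons (7.95% and 11.0%). In committed and newly formed oligodendrocytes 16 of 16 measured sterol genes were higher (19.9% and 33.6%), and in precursors 9 of 15 were higher and 0 lower (20% in each direction). Endothelial cells had 6 of 12 higher and 2 lower, Fdft1 and Cyp51 (26.2% and 17.1%), microglia 2 of 4 higher and 1 lower (19.9% and 22.5%), and mural cells 1 of 3 higher and 1 lower (19.6% and 28.1%). The median log2 ratio of the 18 genes was 0.43 in mature oligodendrocytes, 0.27 in astrocytes and -0.02 in neurons, against -0.01, -0.03 and -0.02 over all genes. The interval lay above zero for 15 of 18 genes in mature oligodendrocytes, 8 of 18 in astrocytes and 5 of 18 in neurons, and below zero for 0, 0 and 2. The same share over all genes was not computed. Intervals narrow as the UMIs of a class rise, so these counts cannot be compared between classes.

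**Figure D3:**
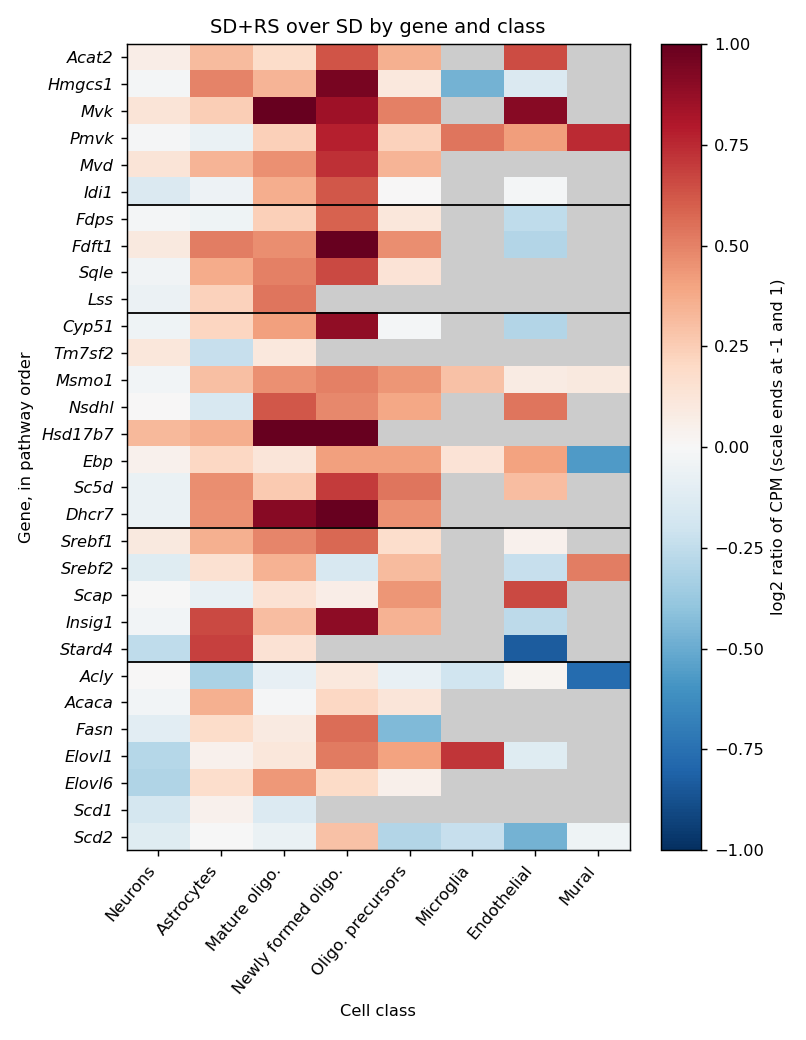
Log2 ratio of CPM (SD+RS over SD) for each of the 30 genes in pathway order (rows, steps divided by lines) and each class (columns); red is higher in SD+RS, blue lower, and grey marks fewer than 50 UMIs over both libraries. The colour scale ends at -1 and 1; Hsd17b7 reached 1.79 in committed and newly formed oligodendrocytes.

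The mevalonate steps turn acetyl-CoA into isoprene units. Acat2 joins acetyl-CoA units and Hmgcs1 makes HMG-CoA from the product. Hmgcs1 stood at 148 and 146 CPM in SD and SD+RS neurons, 114 and 162 in astrocytes, 132 and 167 in mature oligodendrocytes and 330 and 638 in committed and newly formed oligodendrocytes. It was level in neurons and higher in SD+RS in the 3 glial classes, with log2 ratios of 0.50 (0.35 to 0.65), 0.34 (0.23 to 0.45) and 0.95 (0.73 to 1.18). Mevalonate kinase, Mvk, stood at 18.4 and 38.3 in mature oligodendrocytes, a log2 ratio of 1.06 (0.81 to 1.32), and at 21.4 and 23.4 in neurons (0.13, 0.04 to 0.22). Pmvk, the next kinase, was highest in neurons in SD (136 and 134) and at 71.0 and 67.9 in astrocytes, where its ratio of -0.07 spanned zero (-0.28 to 0.15). Mvd, the decarboxylase, was at 40.1 and 50.7 in astrocytes and 11.6 and 12.7 in neurons. The isomerase Idi1 was the mevalonate gene whose interval lay below zero in neurons, at 51.8 and 46.9 (-0.14, -0.20 to -0.08), while in mature oligodendrocytes it stood at 76.0 and 97.6 (0.36, 0.22 to 0.50). Acat2 stood at 46.1 and 48.2 in neurons, 33.3 and 41.6 in astrocytes and 29.5 and 33.5 in mature oligodendrocytes.

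The next enzymes join isoprene units and close the sterol ring. Fdft1, squalene synthase, was the gene of this group with the highest ratio in astrocytes: 105 and 150 CPM, log2 ratio 0.51 (0.36 to 0.67). Its ratio lay above zero in neurons too, at 88.9 and 95.2 (0.10, 0.06 to 0.14), and it reached 53.0 and 130 in committed and newly formed oligodendrocytes. Squalene epoxidase, Sqle, stood at 64.9 and 84.1 in astrocytes (0.37, 0.17 to 0.57) and 27.9 and 39.6 in mature oligodendrocytes (0.50, 0.28 to 0.73), and at 58.2 and 56.8 in neurons. Fdps, which makes farnesyl diphosphate, stood at 138 and 136 in neurons, 87.1 and 84.5 in astrocytes and 129 and 152 in mature oligodendrocytes (0.24, 0.13 to 0.35). Lss, lanosterol synthase, stood at 7.94 and 7.62 in neurons, 16.9 and 19.8 in astrocytes and 9.09 and 13.2 in mature oligodendrocytes.

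The last enzymes turn lanosterol into cholesterol. Msmo1, the C4 methylsterol oxidase, stood at 444 and 546 CPM in astrocytes against 121 and 119 in neurons and 129 and 177 in mature oligodendrocytes, and supplied 30.4% and 31.2% of all sterol synthesis UMIs of astrocytes. Its log2 ratio was 0.30 (0.22 to 0.38) in astrocytes, 0.46 (0.35 to 0.57) in mature oligodendrocytes and -0.03 (-0.06 to 0.01) in neurons. Hsd17b7, the 3-ketosteroid reductase that works in the same demethylation complex, had intervals above zero in neurons, mature oligodendrocytes and committed and newly formed oligodendrocytes. It stood at 8.54 and 10.7 in neurons (0.32, 0.19 to 0.46), 8.35 and 16.9 in mature oligodendrocytes (1.01, 0.63 to 1.40) and 15.5 and 53.8 in committed and newly formed oligodendrocytes (1.79, 0.84 to 2.86), the last from 12 and 41 UMIs. In neurons Hsd17b7 was the 1 member of 30 past 1.2-fold higher.

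Dhcr7, the final reductase, stood at 24.6 and 46.1 in mature oligodendrocytes (0.91, 0.69 to 1.14), 39.8 and 54.8 in astrocytes (0.46, 0.21 to 0.71) and 18.2 and 17.4 in neurons (-0.07, -0.17 to 0.03). Nsdhl, the decarboxylating dehydrogenase of the demethylation complex, was at 17.3 and 26.6 in mature oligodendrocytes (0.62, 0.34 to 0.91), but at 62.5 and 55.8 in astrocytes (-0.16, -0.40 to 0.07). Sc5d, the sterol desaturase, stood at 78.2 and 108 in astrocytes (0.46, 0.28 to 0.64), 90.1 and 108 in mature oligodendrocytes (0.26, 0.13 to 0.39) and 56.9 and 54.5 in neurons (-0.06, -0.12 to -0.01). Cyp51, the lanosterol demethylase, was at 51.4 and 59.7 in astrocytes, 52.4 and 69.6 in mature oligodendrocytes (0.41, 0.24 to 0.58) and 60.5 and 58.6 in neurons. The isomerase Ebp, at 45.8 and 52.9 in astrocytes and 92.6 and 101 in mature oligodendrocytes, had intervals that spanned zero in both. In microglia Ebp stood at 70.0 and 76.9. Tm7sf2, a sterol reductase, stood at 4.72 and 5.10 in neurons, 26.4 and 22.5 in astrocytes and 4.13 and 4.44 in mature oligodendrocytes.

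Among the control and transport genes, Srebf1 differed widely between classes. It stood at 278 and 356 CPM in astrocytes, 79.2 and 111 in mature oligodendrocytes and 6.25 and 6.68 in neurons. The astrocyte ratio was 0.36 (0.26 to 0.45) and that of mature oligodendrocytes 0.49 (0.36 to 0.62). Srebf2, which makes the SREBP best known for driving sterol genes, stood at 68.8 and 63.3 in neurons (-0.12, -0.17 to -0.07), 84.0 and 93.2 in astrocytes and 60.3 and 76.8 in mature oligodendrocytes (0.35, 0.19 to 0.51). Insig1 stood at 106 and 168 in astrocytes (0.66, 0.51 to 0.81), 101 and 125 in mature oligodendrocytes (0.30, 0.18 to 0.43) and 57.2 and 56.0 in neurons. Scap stood at 29.5 and 29.4 in neurons, 52.1 and 49.5 in astrocytes and 40.2 and 44.4 in mature oligodendrocytes.

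Stard4, a sterol carrier protein, had its highest level in endothelial cells, 56.8 CPM in SD and 31.9 in SD+RS, a log2 ratio of -0.83 (-1.37 to -0.32) from 122 and 42 UMIs. It was lower in SD+RS neurons as well (19.9 and 16.7; -0.25, -0.35 to -0.16), and stood at 5.73 and 9.18 in astrocytes from 43 and 38 UMIs (0.68, 0.01 to 1.34). The synapse genes Snap25, Syt1, Stmn2, Meg3 and Snhg11 summed to 646 and 955 CPM in endothelial cells. Red blood cell markers, 5 genes, stood at 4.65 and 13609 in the same class, so RNA of other cells moved with the library there, and its part in the endothelial values was not tested.

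Among fatty acid genes, Scd2, a stearoyl-CoA desaturase, supplied 75.5% of the list's UMIs in mature oligodendrocytes and 75.6% in astrocytes of SD, and 42.1% in neurons. It stood at 2137 and 2037 in mature oligodendrocytes (-0.07, -0.10 to -0.04), 1257 and 1254 in astrocytes (0.00, -0.05 to 0.05), 1375 and 1689 in committed and newly formed oligodendrocytes, 456 and 371 in precursors (-0.30, -0.51 to -0.08), 191 and 176 in neurons (-0.12, -0.15 to -0.09) and 63.3 and 45.6 in endothelial cells. Its paralogue Scd1 stood at 137 and 125 in mature oligodendrocytes, 112 and 115 in astrocytes and 5.92 and 5.25 in neurons. Acly, which splits citrate to acetyl-CoA, had its highest class level in neurons (95.1 and 95.5), and was lower in SD+RS astrocytes at 52.9 and 42.5 (-0.32, -0.58 to -0.06). Acaca, the carboxylase that commits acetyl-CoA to fatty acids, stood at 59.7 and 76.3 in astrocytes (0.35, 0.14 to 0.57), 101 and 99.9 in mature oligodendrocytes and 41.4 and 40.6 in neurons.

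Fasn, the fatty acid synthase, stood at 127 and 145 in astrocytes (0.19, 0.04 to 0.34), 122 and 129 in mature oligodendrocytes and 57.2 and 53.3 in neurons (-0.10, -0.16 to -0.05). The elongase Elovl6 moved in opposite directions, at 71.0 and 95.9 in mature oligodendrocytes (0.43, 0.29 to 0.58) and 57.9 and 47.0 in neurons (-0.30, -0.36 to -0.24). Elovl1, the elongase of very long chains, stood at 206 and 223 in mature oligodendrocytes (0.11, 0.02 to 0.20) against 5.03 and 4.12 in neurons and 25.1 and 25.8 in astrocytes. In microglia Elovl1 stood at 30.1 and 49.4 from 34 and 43 UMIs (0.71, 0.03 to 1.41).

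Another 38 genes of sterol and fatty acid handling were counted at 1.5-fold. In mature oligodendrocytes 1 of 32 measured was higher and 2 were lower, near the 4.26% and 4.67% of all genes. Of these, Elovl7, an elongase, stood at 165 and 264 (0.68, 0.59 to 0.77) and Lrp1, a lipoprotein receptor, at 4.46 and 2.28 (-0.97, -1.83 to -0.18). In astrocytes 1 of 35 was higher, Lbr, which encodes a sterol reductase of the nuclear envelope, with a log2 ratio of 0.68 (0.12 to 1.24), and 0 were lower (all genes 3.85% and 7.17%). In committed and newly formed oligodendrocytes (all genes 6.56% and 14.5%) 1 of 22 was higher, the ceramide synthase Cers2, at 669 and 1137 (0.77, 0.61 to 0.93), and 2 were lower, among them Lrp1 at 81.5 and 21.0 (-1.96, -2.85 to -1.15). In endothelial cells (6.75% and 4.84%) 1 of 24 was higher, Acsl3, which activates fatty acids, at 31.2 and 53.1 (0.77, 0.27 to 1.27), and 1 was lower with an interval that spanned zero. In mural cells (4.72% and 10.9%) 0 of 12 were higher and 2 lower, among them Lrp1 at 188 and 118 (-0.68, -1.18 to -0.19). In neurons (1.67% and 2.79%) 0 of 38 were higher and 2 lower, among them Nr1h3, a sterol-sensing receptor, at 0.75 and 0.46. Abcg1, a sterol exporter, was the 1 gene higher among 26 in precursors (4.06%) and among 17 in microglia (4.59%), with 0 lower in both. It stood at 90.8 and 138 in precursors (0.61, 0.20 to 1.01) and at 40.7 and 67.7 in microglia (0.73, 0.15 to 1.32).

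The values of the glial classes depend on which cells are compared. Of the astrocytes, cluster 8 held 1861 SD and 152 SD+RS cells, and cluster 9 held 104 SD and 1060 SD+RS cells. Within cluster 8 the sterol level was 1452 CPM in SD and 1583 in SD+RS (log2 ratio 0.12, 0.02 to 0.22), and within cluster 9 it was 1649 and 1770, 0.10 (-0.02 to 0.23). The remaining, shallow cluster 21 had 1413 and 1962 (0.47, 0.18 to 0.76) from 130 and 62 cells. The ratio of 0.26 over all astrocytes was therefore more than 1.5 times the ratio within either large cluster, and with 1 library each a difference in astrocyte states cannot be told apart from the library.

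Mature oligodendrocytes also split by library. Sub-clusters 3 and 4 were the ones that had at least 30 cells in each library. Sub-cluster 3 (led by Klk6, S100b and Hopx; 174 and 39 cells) had a sterol level of 1253 and 1554 (0.31, 0.17 to 0.45). Sub-cluster 4 (led by Hist1h1c, Opalin and Hebp1; 39 and 533 cells) had 1431 and 1237, a ratio in the opposite direction (-0.21, -0.34 to -0.07). Of the sub-clusters nearly all from SD, number 0 (led by Vtn, Cldn5 and Rhoj, the first 2 of them vessel markers) had 932 in SD, number 1 (led by Cdkn1a and Bfsp2) had 841 and number 2 (led by Lyz2 and C1qa, genes of macrophages and microglia) had 978, and sub-cluster 6, nearly all from SD+RS, had 1322 in SD+RS. Sub-cluster 5, led by astrocyte genes (41 and 19 cells), was left out of the class. Sub-cluster 7, led by Meg3, Rtn1 and Snhg11 (9 and 6 cells), stayed in the class, with a sterol level of 766 and 909. Endothelial markers in the class stood at 19.2 and 4.06 CPM and mural markers at 15.2 and 2.03. The sex mix moved with the class as well: the sterol ratio was 0.24 (0.19 to 0.30) in mature oligodendrocytes with Xist UMIs only and 0.69 (0.59 to 0.78) in those with Y-linked UMIs only. In astrocytes these values were 0.23 and 0.35. Synapse genes summed to 312 and 383 CPM in mature oligodendrocytes, and astrocyte markers to 173 and 143; in astrocytes the synapse list stood at 595 and 494 and neuron markers at 375 and 158. The part of sex and of other cells' RNA in the ratios was not tested.

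**Figure D4:**
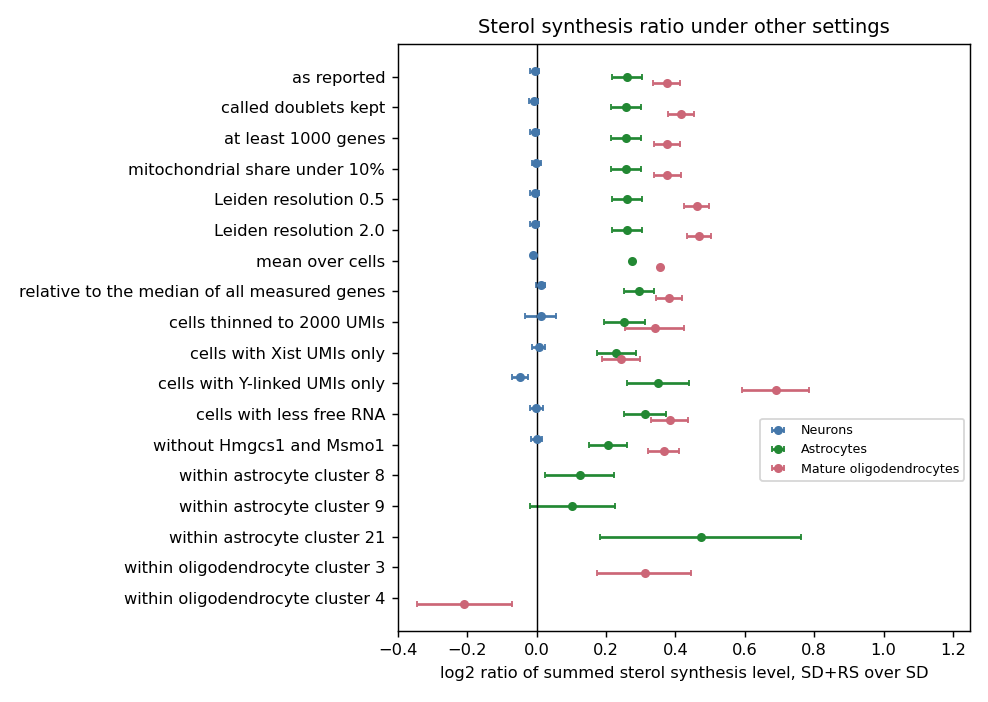
Log2 ratio of the summed sterol synthesis level (SD+RS over SD) in neurons, astrocytes and mature oligodendrocytes as reported and under other cell filters, clusterings, scalings and cell subsets, with 95% intervals of counting error (none for the mean over cells). Neurons stayed between -0.05 and 0.01, astrocytes between 0.10 and 0.47, and mature oligodendrocytes reached from -0.21 within sub-cluster 4 to 0.69 in cells with Y-linked UMIs only.

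The committed and newly formed oligodendrocytes had the highest sterol level and ratio but rest on 56 and 37 cells, with median depths of 11469 and 19713 UMIs. Cyp51 stood at 136 and 251 CPM (0.89, 0.53 to 1.24), Insig1 at 60.8 and 113 (0.89, 0.36 to 1.44) and Dhcr7 at 23.3 and 63.0 from 18 and 48 UMIs, while Srebf2 stood at 86.6 and 77.5, with an interval that spanned zero. The mean share of cells with a UMI of a marker was higher here for the mature markers (71.8%) than for the class's own (58.4%), and the name rests on its leading genes, among them Gpr17, Enpp6 and Bmp4. Its own markers summed to 4284 CPM in SD and 2101 in SD+RS, while mature oligodendrocyte markers stood at 22408 and 32000. In the mature class those mature markers stood at 21375 and 21815. In SD+RS the cells named committed and newly formed thus held more of them than the mature class did. Astrocyte markers stood at 1045 and 34.1, and synapse genes at 1697 and 444. Markers of stage and of other cells thus moved with the library, and their part in the ratio was not tested. In the cells at or below their library's median share of markers from outside the oligodendrocyte lineage, the sterol ratio was 0.55 (0.42 to 0.67). Mature and precursor markers counted as the class's own there, so this subset does not address stage.

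Among neurons the level of the sterol genes differed between clusters over a wider range than between libraries. Over 33 neuron clusters with at least 50 cells in each library, the summed sterol level ran from 772 to 1611 CPM in SD (median 956) and from 741 to 1683 in SD+RS (median 976). The log2 ratio ran from -0.20 to 0.24 with a median of -0.02, and its interval lay above zero in 8 clusters and below in 7. For the fatty acid genes the median ratio was -0.14, with intervals below zero in 18 clusters and above in 1. The highest sterol ratios were 0.24 (0.14 to 0.34) in a cluster led by Nts, Rorb and Zic1 (936 and 1107) and 0.19 (0.07 to 0.30) in a cluster led by C1ql3, Sox3 and Calcr (782 and 890). The lowest were -0.20 (-0.27 to -0.12) in a cluster led by Nrn1 and Tbr1 (993 and 867) and -0.14 (-0.23 to -0.06) in a cluster led by Serpinb1b and Foxp2 (1291 and 1168). The lowest level of the 33 in both libraries was in a cluster led by C1ql1, Sncg and Fam159a (772 and 741).

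**Figure D5:**
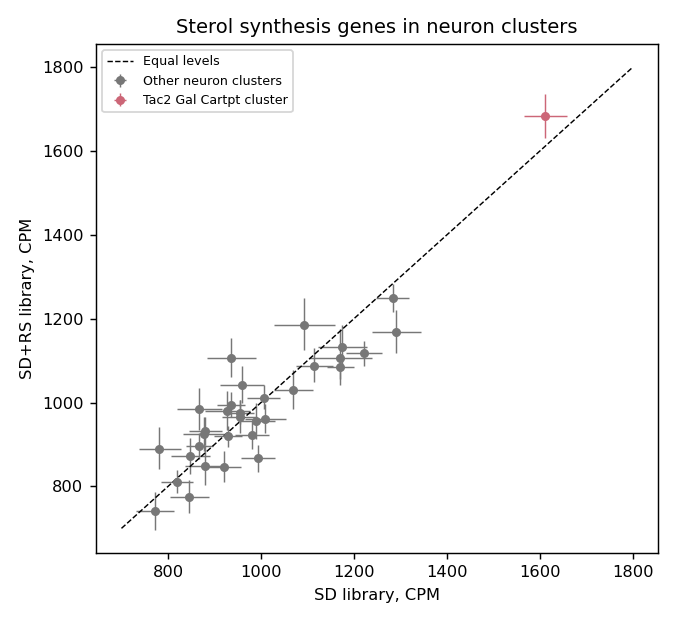
Summed level of the 18 sterol synthesis genes in 33 neuron clusters, SD against SD+RS, in CPM, with 95% Poisson intervals and a dashed line of equal levels. The Tac2 Gal Cartpt cluster (red) lies apart at 1611 and 1683, and the other clusters lie between 741 and 1291.

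Among these 33 clusters, the one with the highest level in both libraries was led by the neuropeptide genes Tac2, Gal and Cartpt (94 and 78 cells). Its sterol level was 1611 (1565 to 1659) in SD and 1683 (1632 to 1735) in SD+RS, against 1019 and 1017 in the other neurons, 1.58-fold and 1.66-fold. The cluster stands out by this same sum, so its values against other neurons are a description. Stard4 stood at 76.0 and 66.2 against 18.1 and 15.4 (4.20-fold and 4.29-fold). Hsd17b7 stood at 22.3 and 46.7 against 8.10 and 9.74 (2.75-fold and 4.79-fold). Insig1 stood at 130 and 118 against 54.8 and 54.4, Hmgcs1 at 279 and 304 against 144 and 142, and Idi1 at 95.1 and 103 against 50.4 and 45.4. Srebf2 stood at 76.3 and 85.2 against 68.5 and 62.8, and Scap at 30.4 and 30.4 against 29.5 and 29.4.

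Between the libraries this cluster's sterol list sum had a log2 ratio of 0.06 (0.00 to 0.12), but Hsd17b7 and Dhcr7, 2 members picked from the 30, moved apart. The members whose interval excluded zero in this cluster were not counted. Hsd17b7 stood at 22.3 CPM in SD and 46.7 in SD+RS (log2 ratio 1.07, 0.61 to 1.53) from 63 and 115 UMIs. Dhcr7 stood at 33.9 and 21.9, -0.63 (-1.14 to -0.13) from 96 and 54 UMIs. Of the fatty acid genes, Scd2 stood at 276 and 210 CPM from 780 and 518 UMIs. In the authors' deposited table of cluster markers for both libraries, the cluster led by Tac2, Gal and Cartpt listed 7 of the 30 genes as markers: Stard4, Hmgcs1, Acly, Insig1, Idi1, Fdft1 and Msmo1. The authors' deposited table for the SD library listed the same 7 for its Tac2 cluster, and that for SD+RS listed 9, adding Cyp51 and Hsd17b7. In the authors' deposited table for both libraries, Stard4 was detected in 74.1% of the cluster's cells and 26.2% of other cells. For Hsd17b7 the authors' deposited table of SD+RS gave 70.3% and 17.2%. In all 3 of the authors' deposited tables, no other cluster had more of the 30 genes as positive markers. The markers of this cluster over all genes were not counted, so 7 and 9 of 30 have no background. These marker lists come from the same libraries and are not separate evidence. The cluster was also deep, with median depths of 31922.5 and 32101 UMIs against 21876.5 and 21214 over all neurons.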

How the data were processed

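Single cells of 2 libraries (1 per treatment) were analysed. Per the file headers the UMI counts came from Cell Ranger 3.0.2; the submitters' processing notes name mm10 and Seurat 4.0.4. Labels and headers do not state aligner settings. Besides counts, the authors' deposited marker tables give a log fold, taken as natural log though no header states its base, of which only the sign is used, the fraction of cells with the gene and a p-value per gene; fractions are printed as percent, and the p-values, which treat cells as replicates, are not used. No column was left unmapped.

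Cells needed 500 detected genes or more and a mitochondrial share below 20%. Scrublet (through scanpy 1.11.5) called 580 and 297 doublets (5.87% and 3.85%), which were left out. Clustering used 2000 variable genes without the 30 members, 40 components, 20 neighbours and Leiden resolution 1.0 (neurons 1.5). Classes were named where at least 3 markers each had a UMI in at least 20% of a cluster's cells and no second class reached 0.65 of the first class's mean detection, limits chosen with the data in view; between oligodendrocyte-lineage classes the one with most markers among the leading genes was taken, which named the committed and newly formed class. A shallow cluster with neuron markers (5.99% of SD and 0.92% of SD+RS cells) and an endothelial and mural mixture (1.73% and 1.78%) stayed unnamed. UMIs were summed per class and library and divided by the class total. Intervals are exact Poisson (levels) and exact conditional binomial (ratios) at 95%. Cells are not replicates, so no p-value was computed. The ratio script was tested on simulated data. Named genes were all 30 members, other pathway genes past 1.5-fold whose interval excludes zero, and neuron clusters at the ends of the sterol level and ratio. The members and lists were chosen with earlier results of these data known.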

Additional observations from a re-analysis of the deposited data

Results flagged for a closer look

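Scd2 in astrocytes differed in direction between cells grouped by detected Xist or Y-linked UMIs. All 30 genes and their lists were compared this way in each class with enough cells, and no other was flagged. A flag needed the intervals of the Xist and the Y-linked cells on opposite sides of zero, so ratios could differ in size without one. In astrocytes with Xist UMIs only the log2 ratio of Scd2 (SD+RS over SD) was 0.15, and in those with Y-linked UMIs only it was -0.19. For example, Msmo1 in astrocytes was not flagged, at 0.11 (0.01 to 0.21) with Xist and 0.67 (0.51 to 0.82) with Y-linked UMIs only. Differences between the Xist and the Y-linked cells were not tested, since each library is 1 sample.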

How the results depend on the processing

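Of 234 recomputed values under other filters, clusterings, scalings and cell subsets, 167 stayed within the reported interval (counts within 1.5 times), 65 moved, and 2 list ratios whose reported interval excluded zero changed sign. Ratios whose reported interval included zero also changed sign under some settings, in neurons and microglia for the sterol list and in astrocytes, endothelial cells, microglia and mural cells for the fatty acid list. Cells with less free RNA are those at or below the median share of markers of other lineages, taken within each class and library. Log2 ratios of the sterol list were as follows. In neurons, where the reported ratio was -0.01, it was 0.0115 relative to the median of all genes, 0.0116 with cells thinned to 2000 UMIs and -0.0471 where cells held Y-linked UMIs only. In astrocytes it was 0.35 with Y-linked UMIs only, 0.31 in cells with less free RNA, 0.21 without Hmgcs1 and Msmo1, and 0.12, 0.10 and 0.47 within clusters 8, 9 and 21. In mature oligodendrocytes it was 0.42 with called doublets kept, 0.46 and 0.47 at Leiden resolutions 0.5 and 2.0, 0.24 with Xist UMIs only, 0.69 with Y-linked UMIs only, 0.31 within sub-cluster 3 and reversed to -0.21 within sub-cluster 4. In committed and newly formed oligodendrocytes it was 0.996 as a mean over cells, 1.11 thinned, 0.65 with Xist only, 1.503 with Y-linked only and 0.55 with less free RNA. In microglia it was -0.77 with Y-linked only.

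For the fatty acid list, neurons had -0.16 as a mean over cells, -0.0787 with Y-linked only and -0.0718 with less free RNA. Astrocytes had 0.069 under 10% mitochondrial share, 0.17 with Xist only, -0.0781 with Y-linked only, and 0.54 and -0.41 within clusters 8 and 21. Mature oligodendrocytes had -0.11 with Xist only, 0.0645 with Y-linked only, which reversed the sign, -0.0627 with less free RNA, and -0.11 within each of sub-clusters 3 and 4. Committed and newly formed oligodendrocytes had 0.43 as a mean over cells, 0.21 thinned, 0.19 with Xist only and 1.09 with Y-linked only. With called doublets kept, microglia had -0.63 and endothelial cells -0.56; endothelial cells had 0.13 with Y-linked only and 0.10 with less free RNA.

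Past 1.2-fold in place of 1.5-fold, 1 member was higher and 2 lower in neurons, 13 and 1 in astrocytes, 16 higher in mature oligodendrocytes, 13 and 2 in precursors, 3 and 1 in microglia, 7 and 4 in endothelial cells and 2 and 2 in mural cells. With at least 200 UMIs, 1 member was higher in astrocytes, 5 in committed and newly formed oligodendrocytes and 0 in microglia, endothelial cells and mural cells, with 0 lower in the last of these. With at least 20 UMIs, microglia had 2 higher and 2 lower, endothelial cells 2 lower and mural cells 5 higher. The share of all genes was not computed at 200 or at 20 UMIs, so these counts have no background. The cause of these shifts was not tested. The within-cluster values, the sum without Hmgcs1 and Msmo1 and the motif with 1 mismatch were added after the data had been seen. Committed and newly formed oligodendrocytes could not be recomputed at Leiden resolutions 0.5 and 2.0 or with doublets kept, nor mural cells with Y-linked UMIs only. At Leiden resolution 2.0 the cluster led by Gpr17, Enpp6 and Bmp4 held 28 SD and 9 SD+RS cells. It stayed unnamed because precursor markers reached the limit for a second class. No paired analysis was possible because each treatment has 1 library and the labels give no replicate numbers.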

Other observations

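A small neuron cluster led by the cholinergic genes Slc5a7 and Slc18a3 (7 cells in SD and 11 in SD+RS, median depths of 74200 and 74955 UMIs) fell under the 50 cells set for description. Its Acly level was 1638 CPM in SD and 1707 in SD+RS, against 86.1 and 82.4 in the other neurons, 19.0-fold and 20.7-fold. Acly makes cytosolic acetyl-CoA, the donor for acetylcholine. Fasn in the same cells stood at 88.7 and 72.7 and Acaca at 38.6 and 44.6, against 57.0 and 53.1, and 41.4 and 40.5. The sterol list stood at 2644 and 2566, against 1028 and 1021, with Mvk at 104 and 85.4 and Idi1 at 230 and 203. Another cluster under that size, led by Prok2 and Adcyap1 (42 and 81 cells), had a sterol level of 1565 and 1514.

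In astrocyte cluster 8 the fatty acid list stood at 1667 CPM in SD and 2432 in SD+RS (log2 ratio 0.54, 0.46 to 0.63), and in cluster 9 at 1542 and 1583.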
